A study of Mus musculus with 40 samples.

Results

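Transcriptomes of the wild type FVB/N mouse larynx at the level of the vocal folds were compared between adulthood and the day of birth (P0). The comparison took, from 1 of the 2 count matrices, every library whose column name begins with AdultBioRep, 2 libraries, and every library whose column name begins with P0BioRep, 2 libraries, so that it rests on 4 of the 40 libraries of the series. The series follows the larynx, esophagus and trachea of mouse embryos and the larynx after birth. Mice of both ages were untreated. The adults were labelled as 6 to 8 weeks old; part of the study's text gives them a younger age range. The titles call both groups vocal fold, but the tissue label of the adults reads larynx and that of the P0 mice reads vocal fold, and by the methods both were pieces of whole tissue excised around the bilateral folds. The sources used here do not give the sex of the mice or say whether animals were pooled in a library. In such bulk samples, fewer cells of a type and less RNA per cell cannot be told apart.

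The vocal folds are a pair of mucosal shelves in the larynx that close the airway, and vibrate to make voice. A stratified squamous epithelium covers their vibrating edge, airway epithelium and glands lie beside it, and beneath it a lamina propria of collagen, elastin and hyaluronan joins the epithelium to fast striated muscle hung from a cartilage frame. The thyroid, with its parathyroid glands and its calcitonin-making C cells, lies against the outside of that frame, so that a dissection of the larynx can carry its transcripts, above all Tg, the thyroglobulin precursor of thyroid hormone.

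The adult libraries held 22553149 and 28504930 expected counts and the P0 libraries 31047614 and 24243240. Mitochondrial protein-coding genes took 7.14% and 7.07% of the adult counts, against 4.89% and 4.88% at P0. Of 25204 genes tested, 3550 (14.1%) were higher in adults and 3183 (12.6%) were lower, 26.7% in either direction, at a Benjamini-Hochberg adjusted p below 0.05 by edgeR's quasi-likelihood test. The change was at least 2-fold for 2307 of the higher genes (9.15% of those tested) and 2034 of the lower genes (8.07%), and the median log2 fold change of adults over P0 was -0.0308. Levels below are CPM, counts scaled to a common library total, and are not corrected for gene length unless stated. These calls rest on the small spread between 2 libraries of each age, with a common dispersion of 0.0290. With the spread taken from all 40 libraries (dispersion 0.154), 1251 genes were higher and 936 lower. With the spread taken from the 10 libraries whose names carry a barcode like these 4 (dispersion 0.249), 1 gene was higher and 3 lower, and without the 2 E15.5 esophagus libraries among those 10 the numbers were 3096 and 2489.

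Libraries of the same age differed in their makeup, and these differences stand beside the results they touch. The fit was also repeated without each library in turn, and values from those fits are given beside genes printed with their levels or folds, where a call was lost or a fold moved by over 1.5 times and each age kept more than 3 counts. Adult library 1 held more cartilage and marrow transcripts than adult library 2: Col10a1, the collagen of hypertrophic cartilage, was at 1096 and 329.9 CPM in adult libraries 1 and 2, and Ngp, a neutrophil granule protein, at 18.8 and 0.737 CPM. Adult library 2 held more gland transcripts, such as Lyz1, a lysozyme, at 285 and 811 CPM. P0 library 2 held more thyroid transcripts than P0 library 1. The airway secretory list summed to 4142.5 and 7153 CPM in P0 libraries 1 and 2, though the median ratio of library 2 to library 1 over its members was 1.09. P0 library 1 held more squamous transcripts (Krt13, a keratin of the upper layers of stratified epithelium, at 2144 and 1031 CPM in P0 libraries 1 and 2). Transcripts of the Y-linked genes Ddx3y, Eif2s3y, Kdm5d and Uty were plentiful in both P0 libraries and at or near 0 in both adult libraries, while Xist, which coats the inactive X chromosome, was at 1143 and 855 CPM in adults and 224 and 887 CPM at P0. The sex of the animals and their age therefore cannot be told apart in this comparison. Ddx3y, an RNA helicase, was at 0.133 and 0 CPM in adults and 49.5 and 46.9 CPM at P0, and Eif2s3y, a subunit of a translation initiation factor, was at 0 and 0 CPM in adults and 71.6 and 44.5 CPM at P0. Of 766 tested genes on the X chromosome, 87 were higher and 173 lower in adults. Col10a1 had a log2 fold change of 2.25 (3.34 with all 4 libraries) without adult library 1. Lyz1 had a log2 fold change of 3.83 (4.77 with all 4 libraries) without adult library 2. Ngp was not called without adult library 1 (log2 fold change 0.58, adjusted p = 0.61) or P0 library 1 (log2 fold change 3.81, adjusted p = 0.082).

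Thyroid transcripts were present at P0 and nearly absent from adults. Tg, at chromosome 15, 66542602 to 66722570 on the plus strand (GRCm39), was at 6.61 and 3.86 CPM in adult libraries, against 4749.5 and 8281 CPM at P0, a log2 fold change of -10.24 ± 0.51 (SE, n = 2 libraries per age, adjusted p = 2.9e-05). Pax8, a transcription factor of the follicular lineage, was at 0.133 and 0.351 CPM in adults and 17.2 and 23.6 CPM at P0. The groups were thus far apart for both genes, and P0 library 2 had the higher level of each. Pax8 had a log2 fold change of -7.16 (-6.26 with all 4 libraries) without adult library 2.

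Of the 18 members of the thyroid follicle list, 10 were lower in adults, 6 were higher and 2 did not pass the test. The list's median log2 fold change was -1.55, beside -0.0308 over all genes tested. Lower members beside Tg and Pax8 included Cdh16, an adhesion protein of follicular cells (log2 fold change -6.62 ± 0.43), Iyd, which recovers iodide (-6.03 ± 0.38), Dio1, a deiodinase of thyroid hormone (-4.26 ± 0.51), Slc5a5, the sodium-iodide symporter (-3.16 ± 0.81), Slc26a7, an anion transporter (-3.06 ± 0.27), Hhex, a homeobox factor (-1.66 ± 0.22), and Tshr, the receptor of thyrotropin (-1.43 ± 0.32). Nkx2-1, a factor of both thyroid and airway epithelium, was at 17.5 and 21.8 CPM in adults and 12.3 and 18.1 CPM at P0, and Kcne2, a potassium channel subunit, at 0.0887 and 0.351 CPM in adults and 0.354 and 0.66 CPM at P0, and neither passed. Slc5a5 was not called without P0 library 1 (log2 fold change -1.57, adjusted p = 0.073).

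The members that were higher in adults went the other way from Tg. Duox1, an oxidase that makes hydrogen peroxide in thyroid and in airway epithelium, was at 78.4 and 66.3 CPM in adults and 10.6 and 6.6 CPM at P0, and its maturation factor Duoxa1 at 36.8 and 45.8 CPM in adults and 13.3 and 8.37 CPM at P0. Duox2 (log2 fold change 1.51 ± 0.24), Duoxa2 (1.80 ± 0.35), Slc26a4, the anion exchanger pendrin (2.32 ± 0.61), and Foxe1, a forkhead factor of foregut epithelium (0.83 ± 0.21), were also higher. Both adult libraries lay above both P0 libraries for each of these 6 genes, which the test had already picked as higher. Duoxa2 had a log2 fold change of 1.21 without adult library 2. Slc26a4 was not called without adult library 2 (log2 fold change 1.11, adjusted p = 0.16). Foxe1 was not called without adult library 1 (log2 fold change 0.66, adjusted p = 0.15) or P0 library 2 (log2 fold change 0.69, adjusted p = 0.066).

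The P0 replicates differed from each other in thyroid transcripts. In CPM, Tg was 1.74 times as high in P0 library 2 as in P0 library 1. The same ratio had a median of 1.49 over the 10 thyroid members that were lower in adults, with 9 above 1, and a median of 0.695 over the 6 that were higher, with none above 1. The exception among the lower members was Slc5a5, at 4.99 and 1.03 CPM in P0 libraries 1 and 2, a ratio of 0.207. Over all 2658 genes that were lower in adults and had a mean normalised count of at least 50 at P0, the median ratio was 1.04, and 139 of them (5.23%) reached 1.5, beside 4.26% of all 14638 genes at that level and 5 of the 10 lower thyroid members. The part of thyroid tissue in the fall of any other gene was not tested.

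**Figure D1:**
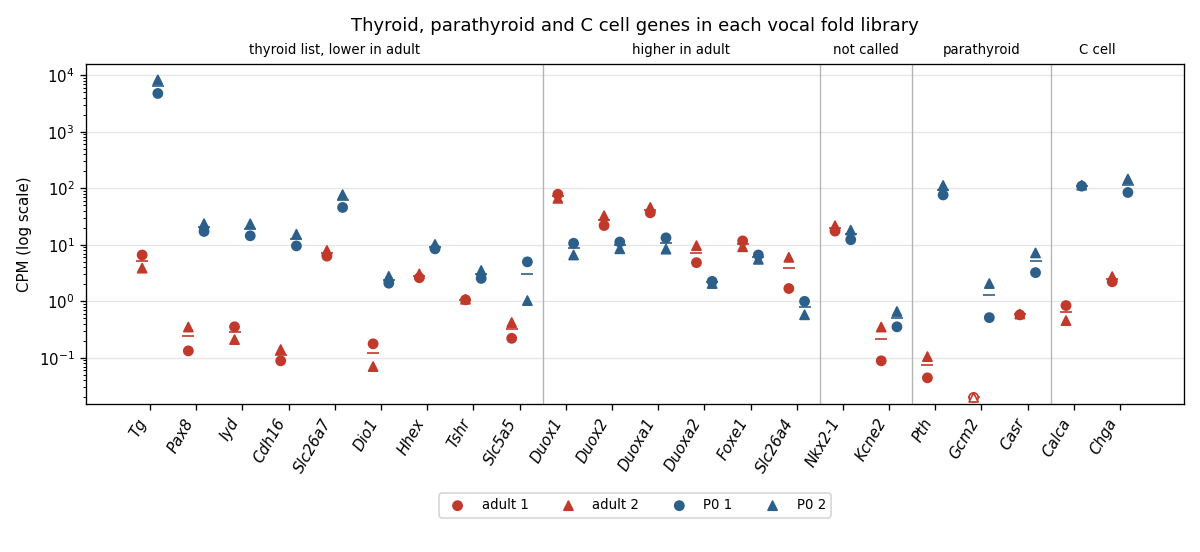
CPM on a log10 scale of members of the thyroid follicle, C cell and parathyroid lists in each library, with adult libraries left of P0 libraries, means as horizontal bars and values of 0 as open symbols at the foot. Tg is at 6.61 and 3.86 CPM in the adult libraries and at 4749.5 and 8281 CPM in the P0 libraries, while Duox1 and Duoxa1 are higher in adults.

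Parathyroid and C cell transcripts were found beside the thyroid ones at P0. Pth, parathyroid hormone, was at 0.0443 and 0.105 CPM in adults and 76.1 and 112 CPM at P0, a log2 fold change of -10.10 ± 0.37 (SE, adjusted p = 1.1e-05). Casr, the calcium-sensing receptor, was at 0.576 and 0.596 CPM in adults and 3.22 and 7.18 CPM at P0. Gcm2, the factor that specifies the parathyroid, had no count in adults, which with a floor of 3 counts over the 2 libraries makes it at least 20.3-fold lower in adults than at P0. All 3 members of that list were lower. Calca, which encodes calcitonin and the neuropeptide CGRP, was at 0.842 and 0.456 CPM in adults and 109 and 113 CPM at P0. P0 libraries 1 and 2 were close in Calca, whereas Pth, like Tg, was higher in P0 library 2. Casr had a log2 fold change of -2.42 (-3.08 with all 4 libraries) without P0 library 2.

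Of the 14 members of the C cell and neuroendocrine list, 8 were lower in adults and 2 higher, with a median log2 fold change of -1.02. Lower with Calca were the granule proteins Chga (-5.48 ± 0.31), Chgb (-1.53 ± 0.26), Scg2 (-2.82 ± 0.25) and Scg3 (-1.26 ± 0.19), the prohormone convertases Pcsk1 (-0.75 ± 0.23) and Pcsk2 (-3.11 ± 0.26), and Ret, a receptor tyrosine kinase (-1.45 ± 0.19). Chga is made in parathyroid cells as well, and was at 2.22 and 2.74 CPM in adults and 84.2 and 146 CPM at P0. Calcb, the second CGRP gene, was higher (2.49 ± 0.38), as was Isl1, a homeobox factor of several lineages (1.57 ± 0.16). Syp, Resp18 and Nkx2-2 were among those that did not pass. Sst, somatostatin, had no count in adults and 4.25 and 4.95 CPM at P0, at least 77.6-fold lower in adults. Pcsk1 was not called without adult library 1, adult library 2 or P0 library 2 (log2 fold change -0.90 to -0.56).

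Lists of other neighbouring tissues held members at very different levels. For comparison with the counts below, 14.1% of all genes tested were higher and 12.6% lower in adults. In the liver list Alb, Afp and Apoa1 were each below 0.2 CPM in all 4 libraries, whereas Trf, transferrin, was at 35.4 and 39.6 CPM in adults and 36 and 67.6 CPM at P0, and 1 of 7 tested members was higher and none lower. In the thymus list Rag1, Dntt, Ptcra and Psmb11 were each below 0.4 CPM, and 3 of 13 tested members were lower and 1 higher in adults. In the heart list 7 of 11 genes were lower and 2 higher, and the lower ones included genes that newborn or slow skeletal muscle also makes, such as Myl4, an embryonic light chain, at 4.66 and 6.95 CPM in adults and 241 and 179 CPM at P0. Nppa was at 0 and 0.105 CPM in adults and 0 and 0.0412 CPM at P0, while Myh6, a myosin of atrial and of some craniofacial muscle, was at 0.665 and 0.456 CPM in adults and 17.6 and 23.7 CPM at P0. Also lower were Nkx2-5, with no count in adults and 1.9 and 1.48 CPM at P0 (at least 29.2-fold), and Tnni3 (log2 fold change -1.38 ± 0.32). The higher genes were Myl7, at 3.19 and 3.47 CPM in adults and 1.29 and 0.66 CPM at P0, and Nppb. Levels of Nppb were low, at 0.31 and 0.456 CPM in adults and 0.0322 and 0.0412 CPM at P0. In the lung list 3 of 10 were higher and 3 lower. Sftpc, surfactant protein C, was at 0.266 and 0.772 CPM in adults and 1.29 and 0.536 CPM at P0. Sftpd, surfactant protein D, which other mucosae also make, did not pass, at 27.4 and 50.2 CPM in adults and 27.8 and 23 CPM at P0, and Ager, of alveolar lining cells, was lower, at 0.665 and 0.912 CPM in adults and 38.3 and 41.6 CPM at P0. The salivary gland list summed to 2744 and 5345 CPM in adults and 2112 and 1098 CPM at P0, mostly from Dcpp1 and Dcpp2, and 3 of 8 tested members were higher and 3 lower. In the fat list 7 of 16 were higher and 3 lower (median log2 fold change 0.61). Adipoq, the hormone adiponectin, was higher at 9.05 and 14.3 CPM in adults and 5.48 and 4.87 CPM at P0, and Ucp1, of brown fat, was lower at 2.35 and 4.28 CPM in adults and 13.3 and 10.3 CPM at P0. The other lower genes were Car3, at 128 and 132 CPM in adults and 524 and 558 CPM at P0, and Fabp4 (-0.51 ± 0.15). Plin1 and Plin4 did not pass. The red cell list summed to 702 and 372 CPM in adults and 616 and 744 CPM at P0, and adult haemoglobin transcripts did not pass the test (Hbb-bs at 315 and 177 CPM in adults and 304 and 382 CPM at P0). Adipoq was not called without adult library 2 (log2 fold change 0.85, adjusted p = 0.067). The salivary gland list had 1 lower without P0 library 1.

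The lists of the larynx itself moved in distinct directions. The defining markers of the labelled tissue were present in all 4 libraries: Krt5 of basal epithelium, Col2a1 of cartilage, Acta1 of skeletal muscle and Col1a1 of fibroblasts were each above 100 CPM throughout. Squamous and cornified epithelium, detoxifying enzymes, complement, and antigen presentation had medians above 1 on the log2 scale, whereas developmental and slow muscle genes, imprinted growth genes, collagens, elastic fibers and the cell cycle had medians below -1. Ribosomal proteins and oxidative phosphorylation stayed within 0.1 of 0.

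**Figure D2:**
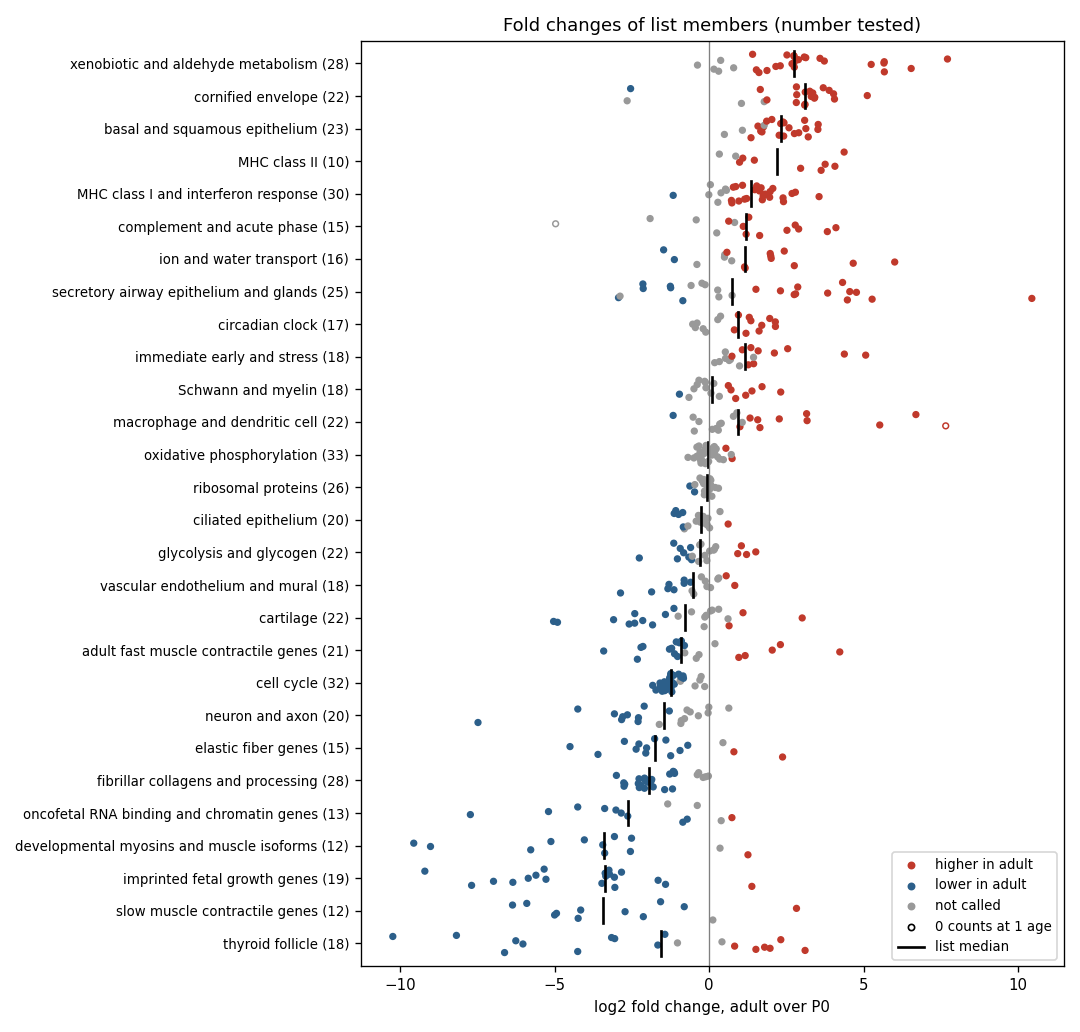
Log2 fold change of adults over P0 for each tested member (points) of the gene lists and for the list median (black bar), with members higher in adults, lower in adults and not called in different colours. Open points had no count at 1 of the ages, so that their position is a fitted value and not a bound. The xenobiotic list lies almost wholly to the right of 0 and the imprinted list almost wholly to the left.

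Muscle genes of the newborn form were lower in adults and several of the adult form were higher. Of the 12 developmental muscle genes 10 were lower in adults and 1 was higher, with a median log2 fold change of -3.41. Myh8, the perinatal myosin heavy chain, was at 29 and 4.67 CPM in adults and 11512 and 14590.0 CPM at P0, a log2 fold change of -9.56 ± 0.95 (SE, adjusted p = 0.00037). Myh3, the embryonic heavy chain, was at 0.931 and 0.596 CPM in adults and 306 and 507 CPM at P0 (-9.02 ± 0.37). Both P0 libraries stood far above both adult libraries, although the adult libraries differed from each other in Myh8. Myh8 had a log2 fold change of -11.4 without adult library 1.

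The fast and developmental heavy chain genes of skeletal muscle lie in 1 cluster on the plus strand of chromosome 11 (GRCm39), in the order Myh3, Myh2, Myh1, Myh4, Myh8 and Myh13, from 66969126 to 67262413. To compare them, CPM was divided by exon length and expressed as a share of the sum over these genes and Myh6, Myh7 and Myh7b. Myh3 took 53.1 and 62.5% of that sum in 2 vocal fold libraries of E15.5 embryos, then 2.79 and 3.95% at P0 and 0.0085 and 0.00678% in the adult libraries. For Myh8 the shares were 41.2 and 30.2% at E15.5, 56.7 and 61.3% at P0 and 0.143 and 0.0286% in the adult libraries. For Myh4, the chain of the fastest limb fibers, they were 1.23 and 0.748% at E15.5, 23.3 and 14.3% at P0 and 88.1 and 90.3% in the adult libraries. On this scale the leading gene was Myh3 at E15.5, Myh8 at P0 and Myh4 in adults. The order at E15.5 depends on the exon lengths used, 6560 bases for Myh3 and 12161 for Myh8: in CPM without length, Myh3 was at 3086 and 1264 and Myh8 at 4440.0 and 1131 in E15.5 libraries 1 and 2. Myh1, of fast fibers between these and the oxidative ones, stood at 0.338 and 0.786% at E15.5, 13 and 15.497% at P0 and 10.6 and 8.57% in the adult libraries, and its own change between adults and P0 did not pass the test.

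**Figure D3:**
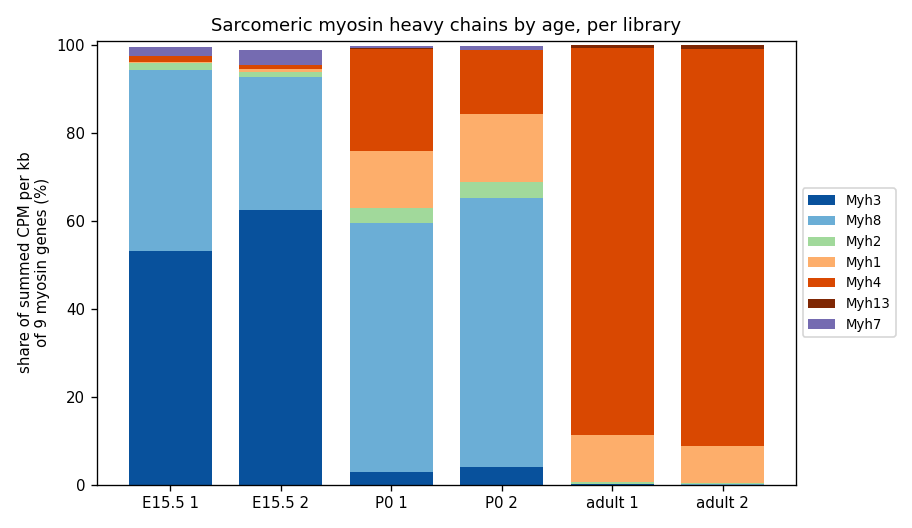
Share in percent of CPM per kilobase held by each of 7 sarcomeric myosin heavy chain genes, of the sum over 9, in each library at E15.5, P0 and adulthood. Myh4 takes 88.1% and 90.3% of the sum in the adult libraries, against 23.3% and 14.3% at P0.

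Within the fast list, 5 of 21 genes were higher in adults and 12 were lower (median -0.90). The higher genes were Myh4, at 9745 and 8025 CPM in adults and 2582 and 1861 CPM at P0 (2.04 ± 0.30), Myh13, the superfast chain of eye and laryngeal muscle (4.23 ± 0.17), Pvalb, the calcium buffer parvalbumin (2.31 ± 0.20), Atp2a1, the calcium pump of fast fibers (0.96 ± 0.26), and Chrne. Thin filament and light chain genes were among the lower ones, with Acta1, skeletal actin, at 1971 and 1934 CPM in adults and 10306 and 9863 CPM at P0 (-2.32 ± 0.27), and Mylpf, the fast regulatory light chain, at 1051 and 1042 CPM in adults and 5555 and 4415 CPM at P0 (-2.21 ± 0.24). Myh2, of fast oxidative fibers, was lower (-3.41 ± 0.37). Actc1, the cardiac and fetal actin, was the developmental gene that was higher, at 856 and 973 CPM in adults and 357 and 433 CPM at P0 (1.26 ± 0.18). Myh2 had a log2 fold change of -4.10 without adult library 1. Atp2a1 was not called without adult library 1, adult library 2, P0 library 1 or P0 library 2 (log2 fold change 0.81 to 1.12). The adult fast muscle contractile genes list had 7 lower without adult library 1.

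Slow muscle genes were lower. Of 12 slow genes 10 were lower in adults and 1 was higher (median -3.44). Tnnc1, the slow and cardiac troponin C, was at 0.842 and 0.351 CPM in adults and 48.2 and 50.9 CPM at P0 (-6.37 ± 0.32). Tnni1, slow troponin I, was at 1.91 and 1.3 CPM in adults and 96.1 and 100.7 CPM at P0 (-5.90 ± 0.22), and Myh7, the slow heavy chain, was at 7.14 and 2.39 CPM in adults and 109 and 203 CPM at P0 (-5.0 ± 0.52). The exception was Pln, phospholamban, an inhibitor of the slow calcium pump, at 4.57 and 5.72 CPM in adults and 0.676 and 0.825 CPM at P0. Tnnc1 and Myh7 had log2 fold changes of -7.06 and -5.96 without adult library 1.

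Genes of muscle formation and of the developing synapse were lower as well. Mymk, a membrane protein needed for myoblast fusion, was at 0.222 and 0.0702 CPM in adults and 53 and 52.7 CPM at P0 (-8.49 ± 0.31, adjusted p = 1.2e-05). Its partner Mymx had 3 counts in adults in all, so that the ratio of P0 to adults was 52 with a counting interval (95%) of 17.5 to 255. Myog, the regulator of myoblast differentiation, was at 9 and 8.7 CPM in adults and 66.8 and 66.7 CPM at P0 (-2.87 ± 0.15), and Pax7, of muscle stem cells, was at 2.75 and 3.37 CPM in adults and 7.83 and 11.6 CPM at P0 (-1.61 ± 0.26). Of the 19 regulators 9 were lower and 4 higher. The higher ones were Six4, Eya1, Mstn, which limits muscle growth, and Myh14, a nonmuscle myosin that is also made in epithelium (1.58 ± 0.15). Mstn lay at the threshold (0.54 ± 0.17, adjusted p = 0.0499 by edgeR's quasi-likelihood test). Its log2 fold change was 0.33 without adult library 1.

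Subunits of the acetylcholine receptor at the muscle endplate moved in opposite directions. Chrng, the fetal gamma subunit, was at 0.621 and 0.316 CPM in adults and 25.9 and 26.1 CPM at P0 (-5.78 ± 0.28, adjusted p = 2.8e-05). Chrne, the adult epsilon subunit, was at 17.4 and 16 CPM in adults and 8.6 and 6.68 CPM at P0 (1.17 ± 0.19, adjusted p = 0.0036). Both adult libraries lay on 1 side of both P0 libraries for each. Chrna1, the alpha subunit shared by both receptor forms, was lower (-2.55 ± 0.17). The 250 bases before the start of both genes are shown because the fetal and adult receptor forms differ in this pair, as RefSeq gives them on GRCm38.p6, from chr1:87205561-87205810 on the plus strand for Chrng and chr11:70619195-70619444 on the minus strand for Chrne, 5′ to 3′ along each gene. Capitals mark the E-box CAGCTG, a sequence that reads the same on both strands and that myogenic regulators such as Myog can bind.
Chrng: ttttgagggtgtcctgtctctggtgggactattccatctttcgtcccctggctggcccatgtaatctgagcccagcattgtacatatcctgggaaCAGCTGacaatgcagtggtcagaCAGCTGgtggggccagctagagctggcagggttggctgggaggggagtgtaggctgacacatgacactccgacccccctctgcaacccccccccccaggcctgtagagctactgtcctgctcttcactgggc
Chrne: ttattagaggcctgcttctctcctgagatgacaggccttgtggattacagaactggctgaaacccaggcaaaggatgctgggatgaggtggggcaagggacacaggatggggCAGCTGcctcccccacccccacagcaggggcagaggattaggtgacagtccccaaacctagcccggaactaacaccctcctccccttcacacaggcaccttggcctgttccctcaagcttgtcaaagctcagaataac
The window of Chrng holds 2 such matches and that of Chrne holds 1. Of 32851 RefSeq windows of this length 13.0% hold at least 1, so that a match by itself sets neither gene apart, and no binding was measured.

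Genes of fetal growth were among the most deeply lowered. Of 19 imprinted genes, which are read from the copy of 1 parent, 18 were lower in adults and 1 was higher (median -3.37). Igf2, a fetal growth factor, was at 41 and 37.7 CPM in adults and 5061 and 5202 CPM at P0 (-6.98 ± 0.27, adjusted p = 1.4e-05), and its neighbour on chromosome 7, the noncoding RNA H19, was at 281 and 191 CPM in adults and 20620.0 and 19257 CPM at P0 (-6.36 ± 0.40). On chromosome 12, Dlk1, a Notch-like inhibitor of adipocyte formation, was at 3.41 and 4.28 CPM in adults and 791 and 859.8 CPM at P0 (-7.69 ± 0.23), Meg3, a noncoding RNA, was at 168 and 104 CPM in adults and 4825 and 6096 CPM at P0 (-5.28 ± 0.34), and Rtl1, a retrotransposon-derived gene, was at 0.665 and 0.281 CPM in adults and 285 and 276 CPM at P0 (-9.21 ± 0.32). The groups did not overlap for any of the 18 that were lower, which describes genes that the test had already picked and adds no support. Dcn, decorin, which is imprinted in placenta, was the higher one and is described with the proteoglycans. Rtl1 had a log2 fold change of -9.88 without adult library 1.

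Oncofetal and cell cycle genes were lower with them. Of 13 oncofetal genes 9 were lower and 1 higher (median -2.64). Igf2bp3, which binds Igf2 and other messengers, was at 0.887 and 0.561 CPM in adults and 25 and 29.5 CPM at P0, and Igf2bp1, with 3 counts in adults, had a ratio of P0 to adults of 232 with a counting interval (95%) of 79 to 1126. Hmga1, a chromatin protein, was the higher gene (0.74 ± 0.18). Of 32 cell cycle genes 25 were lower and none was higher (median -1.24). Mki67, the proliferation antigen, was at 49.5 and 45.2 CPM in adults and 104 and 133 CPM at P0 (-1.27 ± 0.16), and Cdk1, the mitotic kinase, was at 8.6 and 9.93 CPM in adults and 33.3 and 34.7 CPM at P0 (-1.83 ± 0.16). Pcna, the sliding clamp of replication, did not pass, at 89 and 64.7 CPM in adults and 97.7 and 91.8 CPM at P0. Adult library 1, the library with marrow transcripts, was above adult library 2 in replication genes, with Mcm5 at 32.1 and 13.54 CPM. Hmga1 was not called without adult library 1, adult library 2 or P0 library 2 (log2 fold change 0.56 to 0.76).

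The growth hormone and IGF list divided evenly, with 3 of 13 higher and 3 lower (median -0.19). Igf1, the postnatal growth factor, was lower in this tissue, at 52.4 and 48.9 CPM in adults and 128 and 202 CPM at P0 (-1.66 ± 0.22). Ghr, the growth hormone receptor, was at 55.9 and 55.9 CPM in adults and 57.5 and 74.6 CPM at P0 and did not pass the test. The growth hormone and IGF axis list had 5 lower without P0 library 1.

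Collagen matrix genes were lower in adults, although bulk tissue cannot place them in the lamina propria or in another layer. Of 28 genes of fibrillar and associated collagens and their processing, 23 were lower and none was higher (median -1.94). Col1a1, a chain of type I collagen, was at 416 and 288 CPM in adults and 2177 and 2732 CPM at P0 (-2.76 ± 0.25, adjusted p = 0.00027), and Col3a1, of type III collagen, was at 1270.0 and 1015 CPM in adults and 4959.5 and 6328 CPM at P0 (-2.26 ± 0.26). Lox, the enzyme that cross-links collagen and elastin, was at 86.4 and 84.4 CPM in adults and 313 and 396 CPM at P0 (-2.01 ± 0.17). The 5 genes that did not pass were the prolyl hydroxylases P4ha1 and P4ha2, the lysyl hydroxylase Plod3, Loxl4 and Pcolce, a procollagen processing enhancer.

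Elastic fiber genes followed, with 12 of 15 lower and 2 higher (median -1.76). Eln, elastin, was at 272 and 332 CPM in adults and 3691 and 3868 CPM at P0 (-3.60 ± 0.23, adjusted p = 7.7e-05). Fbn2, the fibrillin of early development, was at 16.1 and 9.37 CPM in adults and 229 and 367 CPM at P0 (-4.50 ± 0.33), a larger difference than that of Fbn1, the fibrillin of later life, at 184 and 175 CPM in adults and 588 and 922 CPM at P0 (-2.02 ± 0.23), though the difference between the genes was not tested. The higher genes were Efemp1, fibulin-3, at 113 and 133 CPM in adults and 25.5 and 23.3 CPM at P0 (2.38 ± 0.16), and Fbln1, fibulin-1 (0.80 ± 0.18).

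Proteoglycans and hyaluronan genes went both ways. In that list 6 of 20 were higher and 9 lower (median -0.51). Dcn, decorin, which coats collagen fibrils, was at 1390.5 and 1486 CPM in adults and 578 and 559 CPM at P0 (1.38 ± 0.18). Its relatives Bgn, biglycan (-1.10 ± 0.17), and Aspn, asporin (-2.69 ± 0.19), were lower. Postn, periostin, of growing connective tissue, was at 346 and 235 CPM in adults and 2530.3 and 2553 CPM at P0 (-3.09 ± 0.25). Of the hyaluronan synthases, Has3 was higher (0.65 ± 0.19), and Has2, at 11.3 and 10.7 CPM in adults and 14.1 and 15.2 CPM at P0, and Has1 did not pass. The hyaluronan receptor Cd44 (1.12 ± 0.16) and the hyaluronan-degrading Cemip (1.72 ± 0.27) and Hyal1 (1.01 ± 0.30) were higher. Has3 was not called without adult library 1, adult library 2, P0 library 1 or P0 library 2 (log2 fold change 0.55 to 0.76). Hyal1 was not called without adult library 1 (log2 fold change 0.55, adjusted p = 0.25) or P0 library 1 (log2 fold change 0.83, adjusted p = 0.099).

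**Figure D4:**
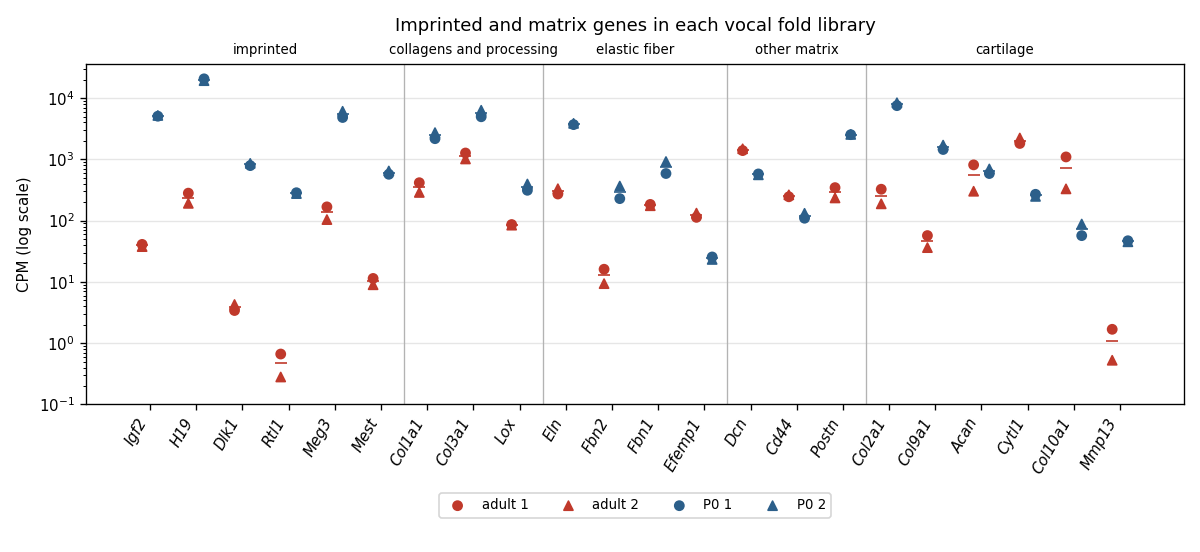
CPM on a log10 scale of imprinted, matrix and cartilage genes in each library, with adult libraries left of P0 libraries. Eln and Col2a1 are lower in both adult libraries than in both P0 libraries, whereas Dcn and Cytl1 are higher. Horizontal bars are means.

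Cartilage genes were divided between structural collagens and other products. Of 22 cartilage genes 10 were lower and 3 higher (median -0.79). Col2a1, the main cartilage collagen, was at 326 and 188 CPM in adults and 7529.5 and 8392 CPM at P0 (-4.91 ± 0.36, adjusted p = 0.00011), and Col9a1, of type IX collagen, was at 57.1 and 36.3 CPM in adults and 1449.6 and 1709.5 CPM at P0 (-5.04 ± 0.28). Acan, the aggrecan core protein, did not pass, at 813 and 302 CPM in adults and 587 and 698 CPM at P0, nor did Sox9, the chondrocyte factor, at 49 and 34.8 CPM in adults and 34.4 and 35.3 CPM at P0. Cytl1, a secreted protein of chondrocytes, was at 1818 and 2232 CPM in adults and 269 and 249 CPM at P0 (3.01 ± 0.21), and Prg4, lubricin (1.10 ± 0.18), and Chad, chondroadherin (0.65 ± 0.18), were also higher. Adult library 1 was above adult library 2 for Acan, and for Matn1, of nonarticular cartilage, at 166 and 29.9 CPM. Chad was not called without adult library 1 (log2 fold change 0.41, adjusted p = 0.25) or P0 library 1 (log2 fold change 0.63, adjusted p = 0.064). The cartilage list had 5 higher without adult library 2.

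In the hypertrophic cartilage and bone list 9 of 15 genes were lower and 2 higher (median -1.0). Col10a1 was at 1096 and 329.9 CPM in adults and 56.9 and 88 CPM at P0 (3.34 ± 0.52, adjusted p = 0.0028), both adult libraries lying above both P0 libraries. Mmp13, a collagenase of mineralising cartilage, was at 1.68 and 0.526 CPM in adults and 47 and 45.2 CPM at P0 (-5.38 ± 0.41), Spp1, osteopontin, at 11.9 and 4.98 CPM in adults and 166 and 131 CPM at P0 (-4.10 ± 0.38), and Ibsp, bone sialoprotein, at 10.6 and 0.877 CPM in adults and 56.1 and 69.3 CPM at P0 (-3.43 ± 0.82). Col10a1 thus went against Ibsp, Spp1 and Mmp13, and Acp5, an osteoclast phosphatase, was the other higher gene (0.75 ± 0.19). Mmp13, Spp1 and Ibsp had log2 fold changes of -6.38, -4.83 and -6.09 without adult library 1. Acp5 was not called without P0 library 2 (log2 fold change 0.53, adjusted p = 0.052).

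Squamous epithelium genes were higher in adults. Of 23 genes 20 were higher and none was lower (median 2.32). Krt13 was at 13760.0 and 9285 CPM in adults and 2144 and 1031 CPM at P0 (2.90 ± 0.43, adjusted p = 0.0021), and its partner Krt4 at 12030.0 and 7924 CPM in adults and 1570.5 and 773 CPM at P0 (3.13 ± 0.42). Of the basal layer, Krt5 was at 2404 and 2399 CPM in adults and 527 and 297 CPM at P0 (2.59 ± 0.30), and Trp63, the factor of basal cells, at 166 and 152 CPM in adults and 42.6 and 37.8 CPM at P0 (2.03 ± 0.15). Basal and upper-layer genes both took part. Krt16, Krt76 and Epcam, an adhesion protein of simple epithelia, did not pass. CPM values of this list were lower in P0 library 2 than in P0 library 1, with a median ratio of 0.516. Krt13 and Krt4 had log2 fold changes of 3.53 and 3.74 without P0 library 1.

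Cornified envelope genes, most of which lie in 1 complex on chromosome 3 (14 of 22), were higher in 18 of 22 cases and lower in 1 (median 3.11). Loricrin, the main envelope protein of epidermis, was at 414 and 181 CPM in adults and 15.4 and 1.98 CPM at P0 (5.12 ± 0.86), Rptn, repetin, at 1378 and 777 CPM in adults and 119 and 16.5 CPM at P0 (4.03 ± 0.81), and Sprr3, a small proline-rich protein of internal epithelia, at 717 and 742 CPM in adults and 83.8 and 32.1 CPM at P0 (3.70 ± 0.42). Both adult libraries stood above both P0 libraries, and the P0 libraries differed from each other by a median ratio of 0.343. Sprr2d was the lower gene, at 0.133 and 1.16 CPM in adults and 5.83 and 2.35 CPM at P0. Flg, filaggrin, Flg2 and Crnn did not pass. In the skin and hair list 3 of 7 tested members were higher and none lower: Loricrin, Krt10 (3.47 ± 0.38), a keratin of cornifying layers, and Tchh, trichohyalin, at 7.94 and 7.86 CPM in adults and 1.93 and 1.69 CPM at P0 (2.16 ± 0.23). Krt71, a keratin of the hair root sheath, was at 0 and 0.21 CPM in adults and 0 and 0 CPM at P0, too few counts to test. Loricrin, Rptn, Sprr3 and Krt10 had log2 fold changes of 7.28, 6.08, 4.56 and 4.26 without P0 library 1. Sprr2d was not called without P0 library 1 (log2 fold change -1.71, adjusted p = 0.093).

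Airway secretory and gland genes were mixed, with 12 of 25 higher and 6 lower (median 0.74). Bpifb1, a secreted antimicrobial lipid-binding protein, was at 1056 and 2703 CPM in adults and 1.26 and 1.53 CPM at P0 (10.45 ± 0.59, adjusted p = 4.6e-05). Its neighbour on chromosome 2, Bpifa1, was at 1645 and 2904 CPM in adults and 69.2 and 51.8 CPM at P0 (5.28 ± 0.36), whereas Bpifb2, of the same cluster, was lower, at 4.43 and 12.5 CPM in adults and 87.1 and 47.5 CPM at P0 (-2.93 ± 0.48). Members of 1 gene family thus differed in direction. Ltf, lactoferrin, was at 7636 and 11326 CPM in adults and 662 and 708 CPM at P0 (3.84 ± 0.32), and Lyz1 and its near copy Lyz2, between which reads may be split, were higher (Lyz1 4.77 ± 0.48). Bpifb1 and Bpifb2 had log2 fold changes of 9.62 and -3.87 without adult library 2.

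Other members of the secretory list also differed in direction. Scgb3a2, a secretoglobin, was at 138 and 247 CPM in adults and 479 and 1286 CPM at P0 (-2.14 ± 0.46), and Muc5b, a gel-forming mucin, was at 627 and 692 CPM in adults and 999 and 2234 CPM at P0 (-1.24 ± 0.34). Scgb1a1, the club cell secretoglobin, did not pass, at 109 and 177 CPM in adults and 107 and 338 CPM at P0. All 3 were higher in P0 library 2 than in P0 library 1. Muc4 (1.52 ± 0.16) and Muc1 (2.31 ± 0.22), mucins that span the membrane, were higher, and so was Pigr, which carries immunoglobulin A across epithelium (2.87 ± 0.44). Chst4, a sulfotransferase that modifies mucin-type sugars, had no count in adults and 8.54 and 5.73 CPM at P0, at least 124-fold lower in adults. Scgb3a2 had a log2 fold change of -1.28 without P0 library 2. Pigr had a log2 fold change of 2.23 without adult library 2. Muc5b was not called without adult library 1 (log2 fold change -1.16, adjusted p = 0.072) or P0 library 2 (log2 fold change -0.57, adjusted p = 0.088).

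Ciliated cell genes changed little in their median, and more were lower than higher. Of 20 genes 5 were lower and 1 higher (median -0.28). Both directions together are close to the 26.7% called over all genes. By direction, 12.6% of all genes were lower and 14.1% higher. Foxj1, the factor of motile cilia, was at 16.4 and 22.8 CPM in adults and 26.8 and 17.3 CPM at P0 and did not pass. The ciliated epithelium list had 1 lower without adult library 1, 1 lower without P0 library 1 and 8 lower without P0 library 2.

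**Figure D5:**
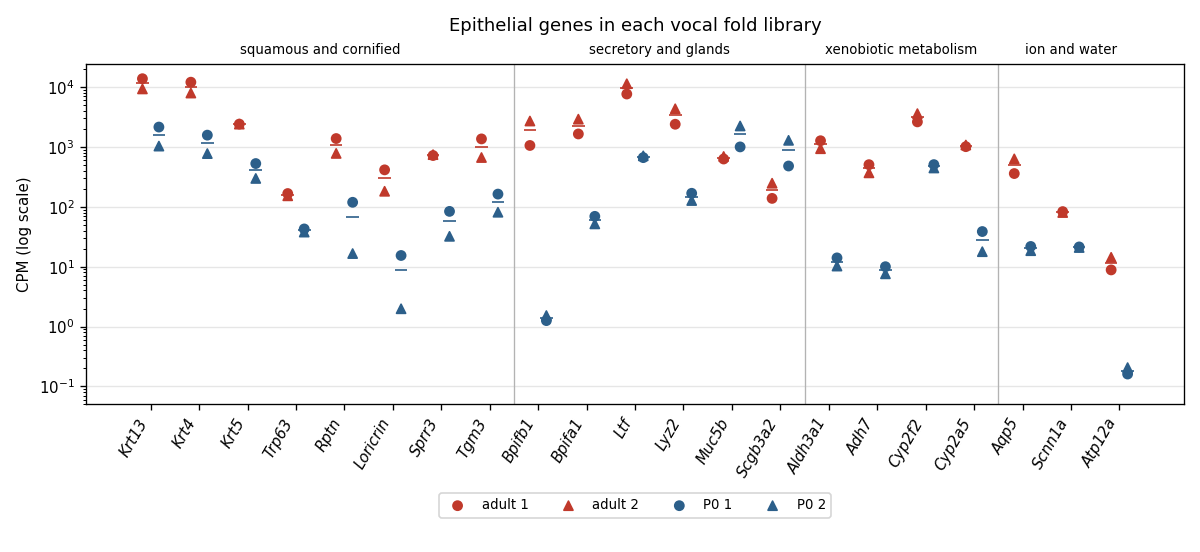
CPM on a log10 scale of squamous, cornified, secretory and detoxifying genes in each library, with adult libraries left of P0 libraries. Bpifb1 stands at 1056 and 2703 CPM in the adult libraries and at 1.26 and 1.53 CPM in the P0 libraries, while Muc5b is lower in adults. Horizontal bars are the mean of the libraries of an age.

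Detoxifying enzymes were higher almost throughout. Of 28 genes of foreign compound and aldehyde metabolism 23 were higher and none was lower (median 2.75). Aldh3a1, an aldehyde dehydrogenase of exposed epithelia such as cornea, was at 1266 and 932 CPM in adults and 14 and 10.2 CPM at P0 (6.54 ± 0.28, adjusted p = 1.8e-05), and Adh7, an alcohol and retinol dehydrogenase of upper digestive epithelium, was at 505 and 368 CPM in adults and 9.98 and 7.59 CPM at P0 (5.67 ± 0.25). Cyp2a5, a cytochrome P450 of airway and liver with near copies in the genome, was at 1008 and 1075 CPM in adults and 38.6 and 17.8 CPM at P0 (5.25 ± 0.38). The members that did not pass were Aldh1a7, Aldh3b1, Cyp1b1, Fmo1 and Akr1c18. Cyp2a5 had a log2 fold change of 5.93 without P0 library 1.

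The largest rises of the whole comparison held more enzymes of this kind. Cyp2c65, a cytochrome P450, had 1 count in all at P0, so that the ratio of adults to P0 was 265 with a counting interval (95%) of 47.2 to 10520.0. Cyp4a12b, a fatty acid hydroxylase (6.11 ± 0.48), the carboxylesterases Ces1h (6.04 ± 0.38) and Ces1g (5.88 ± 0.46), and Adh6a, an alcohol dehydrogenase (5.87 ± 0.50), were among the 15 largest. Cyp4a12b was at 68.5 and 100.3 CPM in adults and 1.9 and 0.536 CPM at P0, and Ces1h at 94.2 and 84.1 CPM in adults and 1.96 and 0.742 CPM at P0. Ada, adenosine deaminase, was at 615 and 154 CPM in adults and 3.58 and 2.27 CPM at P0 (7.07 ± 0.70) and is 1 of the genes in which adult library 1 was well above adult library 2. The uncharacterised 2310057J18Rik had 1 count at P0 and a ratio of adults to P0 of 5778 with a counting interval (95%) of 1037 to 228300.0, and Gm49369, with no count at P0, was at least 65.7-fold higher, at 7.58 and 0.386 CPM in adult libraries 1 and 2. Cyp4a12b and Ces1h had log2 fold changes of 7.34 and 6.95 without P0 library 1. Ada had a log2 fold change of 5.77 without adult library 1.

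Ion and water transport genes were higher in 10 of 16 cases and lower in 2 (median 1.16). Aqp5, the water channel of gland cells, was at 359 and 630.5 CPM in adults and 21.7 and 18.48 CPM at P0 (4.67 ± 0.30), and Aqp3, the water channel of squamous epithelium, was at 449 and 597 CPM in adults and 101.2 and 58.1 CPM at P0 (2.76 ± 0.29). Atp12a, a proton pump, was at 8.82 and 14.3 CPM in adults and 0.161 and 0.206 CPM at P0 (6.01 ± 0.41), and Otop3, a proton channel, at 35.2 and 27.6 CPM in adults and 0.709 and 0.289 CPM at P0 (5.96 ± 0.34). Scnn1a, a subunit of the sodium channel of surface epithelium, was higher (2.0 ± 0.14). The lower genes were Cftr, the chloride channel (-1.13 ± 0.30), and Slc4a4, a bicarbonate transporter (-1.47 ± 0.19). Otop3 had a log2 fold change of 6.79 without P0 library 1. Cftr was not called without adult library 1, adult library 2 or P0 library 1 (log2 fold change -1.26 to -0.86).

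Antigen presentation genes were higher in adults. Of 10 class II genes 8 were higher and none lower (median 2.21). Cd74, the invariant chain, was at 99.6 and 141 CPM in adults and 11.3 and 8.79 CPM at P0 (3.63 ± 0.23), H2-Aa, a class II chain, at 65.8 and 84.1 CPM in adults and 4.8 and 4.37 CPM at P0 (4.07 ± 0.20), and Ciita, their master regulator, at 3.1 and 2.98 CPM in adults and 0.387 and 0.412 CPM at P0 (2.96 ± 0.34). Of 30 class I and interferon response genes 23 were higher and 1 lower (median 1.35), among them H2-D1, a class I chain (1.72 ± 0.20), Irf7, a factor of the interferon response (2.68 ± 0.23), and Ifit1 (3.56 ± 0.34). The lower gene was Igtp, an interferon-induced GTPase (-1.16 ± 0.20). The MHC class II list had 5 higher without adult library 2.

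Myeloid markers changed in part. In the macrophage and dendritic cell list 10 of 22 were higher and 1 lower (median 0.95). Csf1r, the receptor that macrophages depend on, did not pass, at 40.2 and 43.5 CPM in adults and 47.8 and 61 CPM at P0, while Cd209a, a lectin of dendritic cells, was at 4.43 and 5.72 CPM in adults and 0.0322 and 0.206 CPM at P0 (5.53 ± 0.51). Cd207, langerin of Langerhans cells, had no count at P0 and was at least 17-fold higher, at 1.2 and 0.702 CPM in adults. Retnla, a secreted product of alternatively activated macrophages and of fat, was at 24.5 and 27.9 CPM in adults and 0.129 and 0.412 CPM at P0 (6.70 ± 0.36). Mrc1, the mannose receptor, was the lower gene (-1.17 ± 0.20). Mast cell proteases were lower, with Tpsab1 at 2.48 and 3.3 CPM in adults and 26.9 and 22.2 CPM at P0 (-3.03 ± 0.22). In the mast cell, basophil and eosinophil list 4 of 15 were lower and 1 higher, together near the 26.7% called over all genes. Retnla had a log2 fold change of 7.65 without P0 library 2.

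Some lymphocyte and complement genes were higher in adults. Ighm, the immunoglobulin M heavy chain, was at 47.8 and 42.6 CPM in adults and 2.29 and 2.14 CPM at P0 (4.39 ± 0.18), and Igha, of immunoglobulin A, had no count at P0 and was at least 15.2-fold higher. In the B cell list 5 of 19 were higher and 1 lower, together near the 26.7% called over all genes. In the T and NK cell list 7 of 20 were higher and none lower. Over all genes tested, 14.1% were higher and 12.6% lower. Cd3e, of the T cell receptor complex, was at 0.621 and 0.631 CPM in adults and 0.193 and 0.165 CPM at P0. Complement genes were higher in 10 of 15 cases and lower in none (median 1.20). C3, the central complement protein, was at 252 and 271 CPM in adults and 20.3 and 17.7 CPM at P0 (3.83 ± 0.17). Cfd, complement factor D or adipsin, which fat cells secrete, was at 21.5 and 27.8 CPM in adults and 0.387 and 0.495 CPM at P0 (5.85 ± 0.27). Cd3e was not called without adult library 1, adult library 2, P0 library 1 or P0 library 2 (log2 fold change 1.70 to 1.95). The B cell and immunoglobulin list had 3 higher without adult library 2.

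Nerve, vessel and smooth muscle genes were mostly lower or did not pass the test. Of 20 neuronal genes 10 were lower and none higher (median -1.45). Dcx, doublecortin of immature neurons, which was also at 151 and 136 CPM at E15.5, was at 0.177 and 0.0702 CPM in adults and 19.2 and 26.3 CPM at P0 (-7.48 ± 0.37), and Gap43, of growing axons, at 1.46 and 2.46 CPM in adults and 17.6 and 11.6 CPM at P0 (-2.83 ± 0.32). Of 18 Schwann cell genes 7 were higher and 1 lower. Mbp, myelin basic protein, was higher, at 114 and 122 CPM in adults and 48.9 and 43.9 CPM at P0 (1.39 ± 0.15). Mal, Pllp and Erbb3 of that list are also made in epithelium.

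Endothelial and mural genes were lower in 8 of 18 cases and higher in 2 (median -0.53). Pecam1, a junction protein of all endothelium, was at 89.7 and 89.7 CPM in adults and 154 and 170.4 CPM at P0 (-0.81 ± 0.14), and Apln, a ligand of sprouting vessels, at 3.86 and 3.51 CPM in adults and 29.3 and 26.2 CPM at P0 (-2.87 ± 0.18). Flt1, a receptor of VEGF (0.83 ± 0.20), and Vwf, von Willebrand factor (0.55 ± 0.16), were higher. Acta2, smooth muscle actin, was at 57.8 and 83.2 CPM in adults and 234 and 226 CPM at P0 (-1.66 ± 0.20), within a smooth muscle list of which 6 of 12 were lower and 1 higher. Flt1 was not called without adult library 1 (log2 fold change 0.59, adjusted p = 0.083). Vwf was not called without adult library 1 (log2 fold change 0.40, adjusted p = 0.25) or P0 library 1 (log2 fold change 0.50, adjusted p = 0.095). The vascular endothelium and mural list had 0 higher without adult library 1.

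Oxidative phosphorylation and ribosomal proteins gave few calls, and glycolysis and fatty acid oxidation more. Of 33 nuclear genes of oxidative phosphorylation 2 were higher and none lower (median -0.04), and of 26 ribosomal protein genes 2 were lower and none higher (median -0.08). Glycolytic genes were lower in 8 of 22 cases and higher in 4. Eno3, the muscle enolase, was lower (-1.03 ± 0.19), and Hk1, a hexokinase, was higher (1.21 ± 0.17). Fatty acid oxidation genes were lower in 7 of 22 cases and higher in 2, with Fabp3, the fatty acid binding protein of muscle, at 135 and 204 CPM in adults and 482 and 393 CPM at P0 (-1.32 ± 0.23). Eno3 was not called without adult library 1 (log2 fold change -1.0, adjusted p = 0.099) or adult library 2 (log2 fold change -1.03, adjusted p = 0.095). The oxidative phosphorylation list had 0 higher without adult library 2, 4 higher without P0 library 1 and 0 higher without P0 library 2. The oxidative phosphorylation list had 2 lower without P0 library 2. The ribosomal proteins list had 0 lower without adult library 1, 0 lower without adult library 2 and 0 lower without P0 library 1. The glycolysis and glycogen list had 2 lower without adult library 1 and 3 lower without adult library 2. The fatty acid uptake and oxidation list had 2 lower without adult library 1 and 4 lower without adult library 2.

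The remaining large falls were of genes outside these lists. Arhgap36, a developmental regulator of hedgehog signalling on the X chromosome, was at 0.975 and 0.842 CPM in adults and 368 and 428 CPM at P0 (-8.73 ± 0.22). Kcne5, a potassium channel subunit also on the X chromosome, was at 0.222 and 0.21 CPM in adults and 53.8 and 48.3 CPM at P0 (-7.81 ± 0.24), and Grep1 was at 0.133 and 0.105 CPM in adults and 39.6 and 32.2 CPM at P0 (-8.15 ± 0.29). The replicates of each age agreed closely for all 3. A930003A15Rik had no count in adults and 7.54 and 7.09 CPM at P0, at least 125-fold lower, and Eif2s3y was at least 1017-fold lower.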

How the data were processed

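Bulk RNA sequencing of the mouse larynx gave expected counts per gene, which the authors made with RSEM 1.3.3 and Bowtie2 2.4.2 on GRCm39 (FastQC 011.5 for quality) and deposited as 2 matrices of 53647 genes each, 1 of which holds these 4 libraries. RSEM divides reads that match several genes, and no source read here states the strand setting, so that near copies and overlapping genes are uncertain. Counts were rounded to whole numbers. The main test was edgeR 4.0.16 (glmQLFit, glmQLFTest) in R 4.3.3 with median-ratio factors, on the 2 adult and 2 P0 libraries alone, with 2 residual degrees of freedom. The filter kept genes whose normalised count reached 1 in 2 or more libraries, and they were called at a Benjamini-Hochberg adjusted p below 0.05 over all genes tested. The study's own test, a spline over all ages of the larynx, does not compare these 2 ages. Log2 fold changes are adults over P0, ± SE. On simulated counts made from these libraries (5 draws, 24332 genes) 50.2% of 2-fold and 98.0% of 4-fold changes were recovered, and 7.03% of calls were false. The genes changed there were a far smaller share than that called here, and all had a mean normalised count of at least 50. The rates therefore do not cover genes of low count and need not hold for this comparison.

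A gene with no count at 1 age was given a bound, with 3 counts over the 2 libraries as the floor. One with 1 to 3 counts was given a ratio with its exact 95% interval. Both cover counting error only. Members and gene lists were chosen with earlier results of these data known. Genes named were all thyroid, C cell and parathyroid members, the 15 largest rises and falls among protein-coding genes with a mean normalised count of at least 100 at the higher age, outside lists of other tissues and immunoglobulin segments, up to 8 members of each list by level or by change, and defining markers, apart from a few genes that are not reported here. A few further members were named after their values were seen, mostly those that went against their list. Replicates correlated at r = 0.982 (adults) and 0.981 (P0) across genes, on log2 CPM with a prior count of 1. The methods and column names call the replicates biological, without giving the animals behind each library, and the p-values reflect how far these libraries differ. Gene positions are from GENCODE on GRCm39, where 52610 identifiers were found, and promoters from RefSeq on GRCm38.p6. Alternatives were other scalings, filters, tools (DESeq2 1.42.0) and sources of spread, a replicate block, and leaving out each library. No per-sample column was left unused (0).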

Additional observations from a re-analysis of the deposited data

How the results depend on the processing

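Of 3965 values of the 239 genes named, 3475 kept their direction and their side of the threshold, 430 lost the call, 40 gained it and 20 changed sign, and no call was opposite in any fit. TMM factors, library totals alone, no filter, a CPM of at least 1, a robust fit and DESeq2 kept both counts of called genes within 1.5 times. The source of the spread mattered most. With the spread of all 40 libraries 1251 genes were higher and 936 lower. That fit called 216 list members, against 539 called in the main fit. Of neighbouring tissues it called 22 members, against 60 called in the main fit. With the 10 libraries of like barcode names 1 gene was higher and 3 lower, 1 list member was called and 0 of neighbouring tissues. An added fit without the 2 E15.5 esophagus libraries among them, chosen after seeing the data, gave 3096 higher and 2489 lower. A replicate block gave 2435 higher and 2014 lower, with 1 residual degree of freedom. Deviations of same-numbered libraries correlated at -0.104 across genes. With 2 libraries per age this sets 1 difference against 1 other, so it cannot decide whether the numbers pair the libraries. Crossed pairing, also added later, gave 3601 higher and 3141 lower. Asking for a 2-fold change left 2307 and 2034. Taking genes of other tissues out of the fit gave 3545 and 3169, with 0 of those genes left to call. As each library was left out in turn, 2797 to 3592 genes were higher and 2210 to 3196 lower, and 22 of 191 called genes named lost the call at least once. In these fits an age with 1 library is assumed to vary like the other.

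Sign changes were of genes that had not passed. As 1 library was left out, the log2 fold changes of those genes ranged as follows: Acan -1.03 to 0.392, Akr1c18 -0.0277 to 0.719, Bmal1 -0.964 to 0.43, Flg2 -3.57 to 2.31, Foxj1 -0.416 to 0.239, Loxl4 -0.503 to 0.186, Matn1 -1.78 to 0.678, Nkx2-2 -5.04 to 0.337, P4ha1 -0.356 to 0.112, P4ha2 -0.243 to 0.187, Psmb11 -4.54 to 0.0198, Ptcra -0.0937 to 4.64, Rag1 -5.5 to 0.668, Scgb1a1 -1.18 to 0.451, Sftpc -1.75 to 0.0664 and Trf -0.797 to 0.0885. With all 40 libraries P4ha2 was at 0.0194. Where an age was left without counts such a value is set by the prior count.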

Other observations

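Genes of the clock and of stress were higher in adults. Of 17 clock genes 10 were higher and none was lower (median log2 fold change 0.95). Dbp, an output factor of the clock, was at 39.2 and 66.9 CPM in adults and 15.8 and 8.91 CPM at P0 (2.15 ± 0.33, SE), and Nr1d1, a repressor in the clock loop, was at 68.9 and 174 CPM in adults and 26.8 and 30.1 CPM at P0 (2.14 ± 0.38). The adult libraries differed from each other in these genes, with Per2 at 151 and 55.3 CPM and Bmal1, which did not pass, at 9.05 and 23.6 CPM. The hour of tissue collection is not stated by any source read here. Of 18 immediate early and stress genes 10 were higher and none lower (median 1.17). Hspa1a and Hspa1b, near-identical inducible heat shock genes between which reads may be split, were at 117 and 76.5 CPM and 220.5 and 193 CPM in adults, against 3.25 and 2.64 CPM and 11.9 and 8.54 CPM at P0. Fos did not pass, at 50.6 and 84.8 CPM in adults and 24.9 and 62 CPM at P0. Nr1d1 had a log2 fold change of 1.33 without adult library 2. Per2 had a log2 fold change of 1.09 (1.96 with all 4 libraries) without adult library 1. The circadian clock list had 2 lower without adult library 1 and 2 lower without adult library 2.

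Taste and chemosensory genes went both ways, with 6 of 14 higher and 3 lower (median 1.49). Gnat3, gustducin, was at 5.68 and 5.05 CPM in adults and 0.258 and 0.206 CPM at P0 (4.53 ± 0.34), and Pkd2l1, of sour taste cells, was at 2.97 and 2.98 CPM in adults and 0.322 and 0.124 CPM at P0 (3.69 ± 0.43). Trpm5, the channel of taste transduction, was lower, at 5.94 and 6.07 CPM in adults and 14.9 and 15.9 CPM at P0 (-1.31 ± 0.17). Among signalling ligands, Wnt7b, an epithelial Wnt, was at 86.7 and 80.6 CPM in adults and 17.9 and 11.1 CPM at P0 (2.57 ± 0.23), and Wnt2, a mesenchymal Wnt, was at 0.177 and 0.281 CPM in adults and 2.03 and 2.19 CPM at P0 (-3.10 ± 0.43). Of that ligand list 8 of 29 were higher and 6 lower. Among salivary genes, Dcpp2, a secreted protein of the sublingual gland with near copies in the genome, at 1495 and 2839 CPM in adults and 970.4 and 491 CPM at P0, was higher, and Smgc, of the newborn submandibular gland, at 1.51 and 5.58 CPM in adults and 24.1 and 21 CPM at P0, was lower. Pkd2l1 had a log2 fold change of 4.59 without P0 library 1. Smgc had a log2 fold change of -3.85 (-2.60 with all 4 libraries) without adult library 2. The Wnt, Shh, Fgf and Bmp ligands list had 5 higher without adult library 1.

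Marrow genes such as Mpo and Prg2 were carried by adult library 1. Of 12 neutrophil genes 5 were higher in adults and 1 lower, and the median ratio of CPM in adult library 1 over adult library 2 was 8.58. The list also holds Ltf, described above with the gland genes, which is among the higher members and was higher in adult library 2. With Ltf, the list summed to 7766.5 and 11361 CPM in adult libraries 1 and 2. Mpo, myeloperoxidase, was at 4.21 and 0.14 CPM in adult libraries 1 and 2 and 0.0322 and 0 CPM at P0, and Prg2, of eosinophil granules, at 5.1 and 0.105 CPM in adults and 0.0644 and 0.0412 CPM at P0. Both passed the test although adult library 2 alone was near the P0 levels. Mpo was not called without P0 library 1 (adjusted p = 0.067). Prg2 was not called without adult library 1 (log2 fold change 0.96, adjusted p = 0.65) or P0 library 1 (adjusted p = 0.09). The neutrophil list had 2 higher without adult library 1, 8 higher without adult library 2 and 3 higher without P0 library 1.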
